A study of Homo sapiens and Mus musculus with 8 samples.

Results

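A set of 10 transcriptional targets and feedback regulators of Wnt and beta-catenin signalling was followed across every library of the series, namely AXIN2, NKD1, RNF43, ZNRF3, LGR5, NOTUM, ASCL2, SP5, TCF7 and LEF1. The members were listed by gene symbol, but with earlier results of these data known. All 10 were found, each as 1 entry, among the 60483 human genes of the count table. RNA sequencing had been done on the human colorectal cancer lines KM12 and LS174T, each taken from culture and from xenografts, which are tumors that the injected human cells form in a mouse. The KM12 groups were GNAS KO, in which the GNAS gene was knocked out, and parental cells with the genotype GNAS R201H. The LS174T groups were GNAS R201H with Dox (+) and GNAS R201H with Dox (-), so both LS174T states carry the same genotype label, and what doxycycline induces was not stated in the labels used here. Each state was taken as xenograft and as culture, which gives 8 groups of 1 library each. The labels do not say whether the knockout line was a single clone, nor do they give the mouse strain or the number of mice behind a xenograft library.

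As background, Wnt ligands bind Frizzled receptors with LRP5 or LRP6 and stop the destruction complex of APC, AXIN and GSK3 from degrading beta-catenin. Beta-catenin then enters the nucleus and switches on genes bound by TCF and LEF factors. Several of those genes encode brakes on the pathway, so that their transcripts serve as readouts of it, and in the intestinal crypt the same signal maintains stem cells. Most colorectal cancers carry mutations that activate the pathway, and LS174T is known to carry an activating mutation in the beta-catenin gene CTNNB1. GNAS encodes the stimulatory G protein alpha subunit, which raises cAMP; the title of the series asks whether tumors with a mutant form depend on it.

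Depth was 15924846 to 23124811 counts in the xenografts and 31868711 to 37735085 counts in the cultures, so that sequencing depth and environment cannot be told apart. GNAS itself was read as a check of the labels and had 903 CPM in the KM12 GNAS KO xenograft against 1390 CPM in the KM12 parental xenograft, and 298 CPM in the GNAS KO culture against 1119 CPM in the parental culture. CPM here is the count scaled to the TMM-adjusted library size (counts per 1e6 counts). In LS174T, GNAS had 691 CPM in the Dox (+) xenograft against 586 CPM in the Dox (-) xenograft, and 1746 CPM in the Dox (+) culture against 691 CPM in the Dox (-) culture. GNAS was lower in GNAS KO than in parental in both KM12 pairs and higher with Dox (+) than with Dox (-) in both LS174T pairs, but GNAS transcript was still abundant in the xenograft labelled GNAS KO, and a count over the whole gene does not show which exons a knockout alters. All 10 epithelial and intestinal markers, among them EPCAM, CDH1 and CDX2, reached at least 1 CPM in every library. The table holds 0 mouse gene identifiers although the labels name the mouse as organism of the xenografts, and mouse reads that align to human genes may be included.

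The members spanned a wide range of levels, and most of them, but not TCF7 and SP5, differed between the lines. Per kilobase of exon, the order in KM12 xenografts began with LGR5 at 8.57 CPM per kb, the mean of 2 libraries that ranged from 3.39 to 13.7. RNF43 and ASCL2 came next with 6.12 and 6.00 CPM per kb, and the ASCL2 libraries, at 1.13 and 10.9, spanned every value from AXIN2 at 1.98 to LGR5, so those neighbours in the order were not separated. In KM12 cultures ASCL2 led with 18.8 CPM per kb and RNF43 followed with 13.6. In LS174T the order began with ASCL2 in xenografts, at 147 CPM per kb, followed by AXIN2 at 55.3, RNF43 at 36.9 and LGR5 at 28.5. ASCL2 also led in LS174T cultures, at 80.4 CPM per kb, ahead of RNF43 at 46.3 and AXIN2 at 26.5. NKD1 was last in KM12 and LEF1 was last in LS174T, in both environments. NKD1 is annotated with 17425 exonic bases, the longest of the members, which lowers its level per kilobase.

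**Figure D1:**
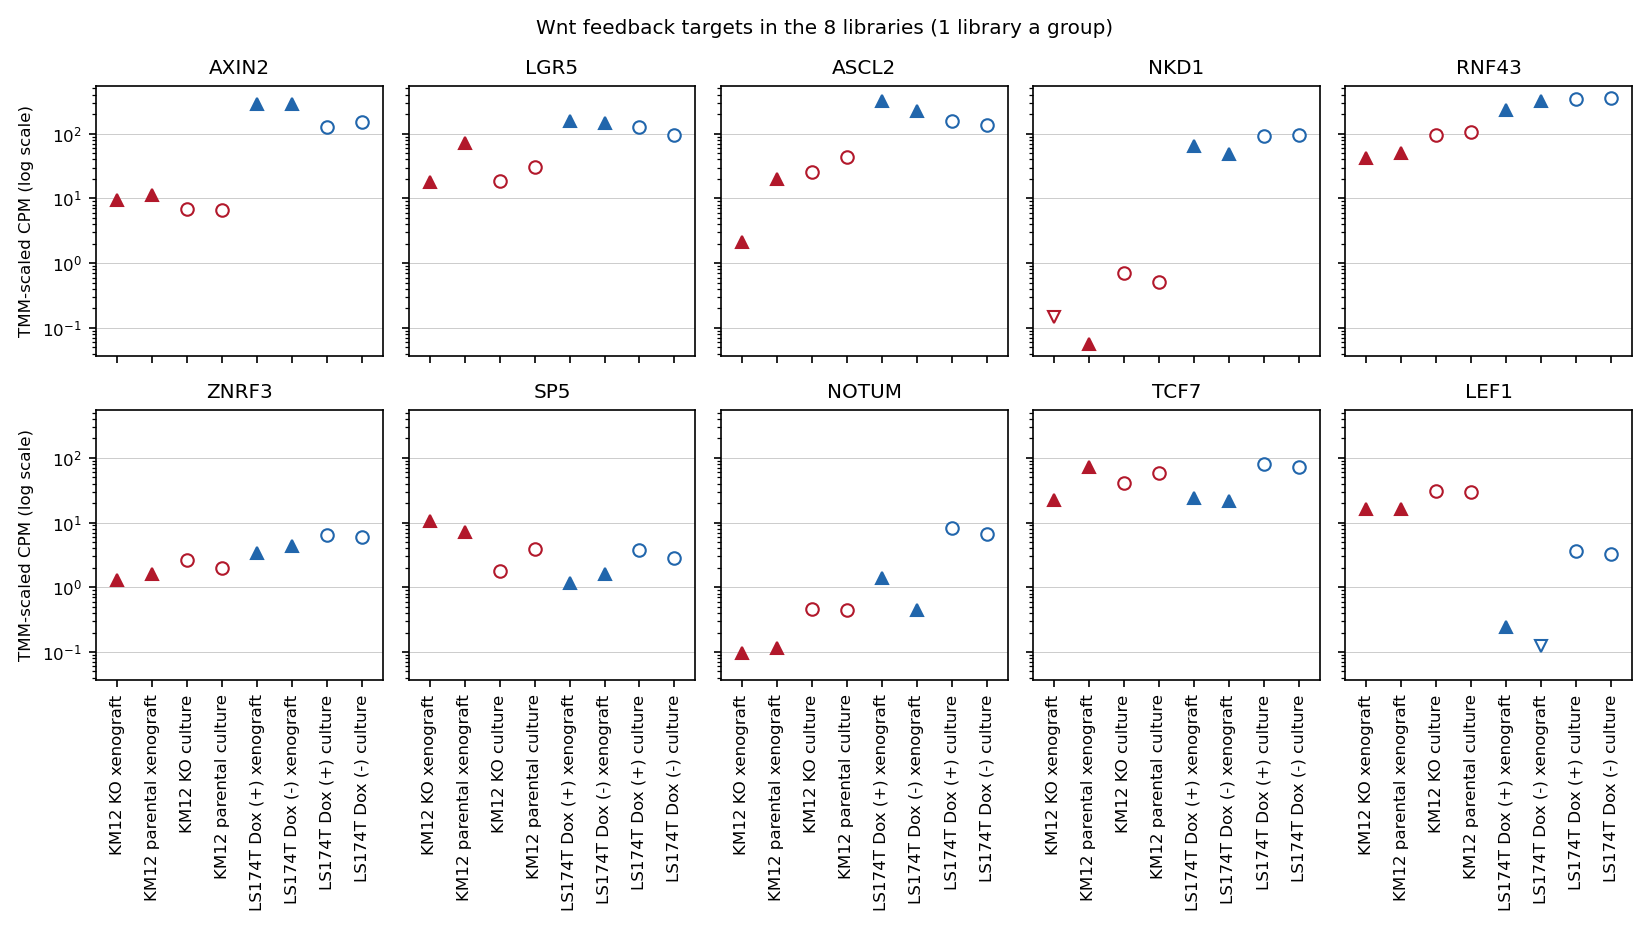
TMM-scaled CPM (log scale) of the 10 members in the 8 libraries, KM12 in red and LS174T in blue; filled triangles are xenografts, open circles are cultures, and open downward triangles mark 0 counts, drawn at the level of 3 counts. The AXIN2, NKD1, RNF43 and ASCL2 panels show every LS174T library above every KM12 library, and the LEF1 panel shows the reverse.

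The first comparison set KM12 against LS174T in 4 pairs matched by environment and GNAS state, KM12 GNAS KO with LS174T Dox (-) and KM12 parental with LS174T Dox (+). At an adjusted p under 0.05, 7 of the 10 members were lower in KM12 and 1, LEF1, was higher. Over all 16070 genes tested, 31.5% passed, 16.7% as lower and 14.8% as higher in KM12. The median difference of the members was -2.15 on the log2 scale, against 0.02 over all genes. For 7 of the 10 members no KM12 library overlapped an LS174T library, where 29.7% of all genes had no overlap. NKD1 and NOTUM passed the filter on low counts only through LS174T libraries, so they had to differ and these counts are descriptions. Each difference below is a log2 value from edgeR's quasi-likelihood test over the 4 pairs, with a standard error (SE) derived from the test statistic and a p adjusted by Benjamini-Hochberg over all genes tested. The lines differ in their whole genetic background, which cannot be told apart from any single feature of them.

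AXIN2 (chromosome 17, 65528563 to 65561647, minus strand, GRCh38), a scaffold of the destruction complex that is itself induced by beta-catenin, had the smallest p of the members. It had 9.37 and 11.4 CPM in the KM12 GNAS KO and parental xenografts and 6.97 and 6.71 CPM in the GNAS KO and parental cultures, against 290 and 288 CPM in the LS174T Dox (+) and Dox (-) xenografts and 128 and 149 CPM in the Dox (+) and Dox (-) cultures. Every KM12 library was far below every LS174T library, and the ratios of single pairs ran from 0.0325 to 0.0525. The fitted difference was -4.57 ± 0.17 (SE, adjusted p = 0.000281), rank 16 by p among the 16070 genes. It passed in each fit that left out 1 pair. AXIN2 shares 25.2% of its exonic bases with AC004805.1, an overlapping gene on the same strand that had 0 to 13 counts, so its own counts are uncertain to the extent that shared reads were left out.

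NKD1 (chromosome 16, 50548330 to 50649249, plus strand), an intracellular inhibitor that binds Dishevelled, was close to silent in KM12. The GNAS KO xenograft had 0 counts, the parental xenograft 1 count, the GNAS KO culture 24 and the parental culture 15, all at or below 0.703 CPM. LS174T had 65.2 and 47.8 CPM in the Dox (+) and Dox (-) xenografts and 91.3 and 96.9 CPM in the Dox (+) and Dox (-) cultures. The groups were separated by a wide gap. In the culture pairs KM12 had 0.00726 times (95% counting interval 0.00464 to 0.0108) the LS174T level for GNAS KO over Dox (-) and 0.00565 times (0.00316 to 0.00934) for parental over Dox (+). The GNAS KO xenograft was 328-fold lower than the Dox (-) xenograft when 3 counts stood for its 0. The fitted difference, -7.95 ± 0.58 (adjusted p = 0.000956), depends on how counts near 0 are handled and is no bound.

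The membrane ubiquitin ligases RNF43 (chromosome 17, 58352500 to 58417595, minus strand) and ZNRF3 (chromosome 22, 28883592 to 29057487, plus strand), which remove Frizzled from the cell surface, were both lower in KM12. RNF43 had 41.9 and 49.9 CPM in the KM12 GNAS KO and parental xenografts and 96.6 and 107 CPM in the cultures in the same order, against 235 and 318 CPM in the LS174T Dox (+) and Dox (-) xenografts and 343 and 352 CPM in the Dox (+) and Dox (-) cultures. The highest KM12 library lay below the lowest LS174T library, and the difference was -2.17 ± 0.24 (adjusted p = 0.00278). ZNRF3 was lowly expressed, with 1.31 to 2.64 CPM in the 4 KM12 libraries and 3.40 to 6.49 CPM in the 4 LS174T libraries, and the difference was -1.43 ± 0.28 (adjusted p = 0.0156). Among all pairs of members, these partners had the most alike profiles over the 8 libraries, with a root mean square difference of 0.472 between their centred log2 CPM values. ZNRF3 lost its call when either culture pair was left out, with adjusted p = 0.0786 without the pair of parental and Dox (+) and 0.0581 without the pair of GNAS KO and Dox (-). RNF43 is uncertain to the extent that it shares 57.6% of its exonic bases with AC004687.2, an overlapping annotation on the same strand that is not among the genes of the count table, and 20.3% with TSPOAP1-AS1 on the opposite strand, because no strand setting is given in the sources used here.

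LGR5 (chromosome 12, 71439770 to 71586310, plus strand), the R-spondin receptor that marks crypt stem cells, had 17.8 and 72.2 CPM in the KM12 GNAS KO and parental xenografts and 18.6 and 30.4 CPM in the GNAS KO and parental cultures. In LS174T it had 154 and 145 CPM in the Dox (+) and Dox (-) xenografts and 126 and 93.9 CPM in the Dox (+) and Dox (-) cultures. All KM12 libraries were lower, with the parental xenograft the nearest to LS174T, and the difference was -2.13 ± 0.32 (adjusted p = 0.00731). NOTUM (chromosome 17, 81952507 to 81961840, minus strand), a secreted enzyme that inactivates Wnt ligands by removing their lipid, had 2, 2, 16 and 13 counts in the KM12 GNAS KO xenograft, parental xenograft, GNAS KO culture and parental culture. It had 29, 11, 244 and 219 counts in the LS174T Dox (+) xenograft, Dox (-) xenograft, Dox (+) culture and Dox (-) culture. The ranges touched, since 0.469 CPM in the KM12 GNAS KO culture exceeded 0.448 CPM in the LS174T Dox (-) xenograft, yet each matched pair was lower in KM12 and the difference was -3.63 ± 0.44 (adjusted p = 0.00369).

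ASCL2 (chromosome 11, 2268495 to 2270952, minus strand), the basic helix-loop-helix factor of crypt stem cells, had 2.09 and 20.1 CPM in the KM12 GNAS KO and parental xenografts and 25.3 and 44.2 CPM in the GNAS KO and parental cultures. LS174T had 319 and 227 CPM in the Dox (+) and Dox (-) xenografts and 159 and 138 CPM in the Dox (+) and Dox (-) cultures. No libraries of the lines overlapped, but the KM12 values were widely scattered, and the difference of -3.57 ± 0.88 (adjusted p = 0.0300) did not pass without the culture pair of GNAS KO and Dox (-) or without the xenograft pair of parental and Dox (+), at adjusted p = 0.0603 and 0.107.

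LEF1 (chromosome 4, 108047545 to 108168956, minus strand), a DNA-binding partner of beta-catenin, was the only member that was higher in KM12 at the threshold. It had 16.4 and 16.1 CPM in the KM12 GNAS KO and parental xenografts and 30.2 and 30.0 CPM in the GNAS KO and parental cultures. The LS174T xenografts had 5 counts with Dox (+) and 0 counts with Dox (-), and the cultures had 3.68 CPM with Dox (+) and 3.25 CPM with Dox (-). Every KM12 library was above every LS174T library, by 9.27 times (7.59 to 11.4) and 8.14 times (6.68 to 10.0) in the culture pairs of GNAS KO over Dox (-) and parental over Dox (+). The gap was wider in xenografts, 66.4 times (28.1 to 206) for parental over Dox (+). For GNAS KO over Dox (-) it was 134-fold when 3 counts stood for the 0. The fitted difference was 4.56 ± 1.00 (adjusted p = 0.0213), and it missed the threshold without the xenograft pair of parental and Dox (+), at adjusted p = 0.0702. Its profile was the one least like that of NKD1, with a root mean square difference of 6.69.

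TCF7 (chromosome 5, 134114711 to 134151865, plus strand), another DNA-binding partner of beta-catenin, and SP5, a zinc finger repressor, did not pass between the lines. TCF7 had 22.1 and 71.7 CPM in the KM12 GNAS KO and parental xenografts and 40.9 and 57.8 CPM in the GNAS KO and parental cultures. It had 23.6 and 21.5 CPM in the LS174T Dox (+) and Dox (-) xenografts and 79.6 and 71.0 CPM in the Dox (+) and Dox (-) cultures. The lines overlapped throughout, and the difference was 0.07 ± 0.41 (adjusted p = 0.916). For SP5 the difference was 1.16 ± 0.74 (adjusted p = 0.278), with the xenograft and culture pairs pointing different ways, as described with the environment below.

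**Figure D2:**
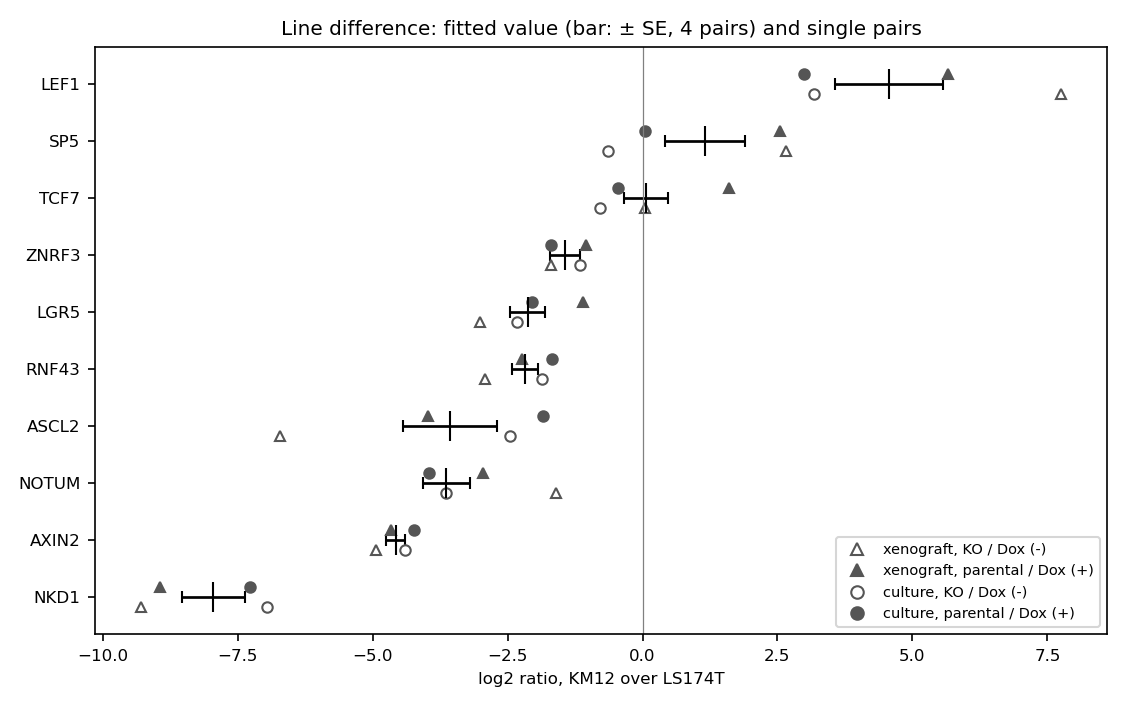
Log2 ratio of KM12 over LS174T for each member (x axis); vertical ticks with bars are the fitted value ± SE over 4 pairs, symbols are single pairs with a prior count of 2, triangles for xenografts and circles for cultures, filled for parental over Dox (+) and open for GNAS KO over Dox (-). NKD1, AXIN2, NOTUM and ASCL2 lie far to the left and LEF1 to the right, and the NKD1 and LEF1 fitted values lie between their culture pairs, nearer 0, and their xenograft pairs.

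The second comparison set the 4 xenografts against the 4 cultures, paired by line and GNAS state. AXIN2 rose while RNF43 and NOTUM fell, 3 of 10 members, where 26.1% of all genes passed, 12.6% as higher and 13.5% as lower in xenografts. The median member differed by -0.71, against 0.02 over all genes. AXIN2 rose by 0.84 ± 0.16 (adjusted p = 0.0197), with ratios of 1.34 (1.11 to 1.63) in KM12 GNAS KO, 1.69 (1.38 to 2.07) in KM12 parental, 2.27 (2.18 to 2.36) in LS174T Dox (+) and 1.93 (1.86 to 2.00) in LS174T Dox (-). All 4 pairs were thus higher as xenografts. Over both lines together, xenografts and cultures overlapped for each member, so that 0 of 10 were free of overlap, where 26.4% of all genes were. RNF43 fell by 0.75 ± 0.21 (adjusted p = 0.0477), with ratios of 0.434 in KM12 GNAS KO, 0.467 in KM12 parental, 0.685 in LS174T Dox (+) and 0.903 in LS174T Dox (-). NOTUM fell by 2.81 ± 0.46 (adjusted p = 0.0155), with ratios of 0.207 (0.0231 to 0.881) in KM12 GNAS KO, 0.256 (0.0281 to 1.13) in KM12 parental, 0.174 (0.114 to 0.256) in LS174T Dox (+) and 0.0666 (0.0328 to 0.122) in LS174T Dox (-). NOTUM would not have passed the filter on low counts without the LS174T cultures, where it is high, so its fall is a description. The KM12 ratios of NOTUM rest on 2 counts per xenograft, and the parental one includes no difference within its interval.

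These calls depended on single pairs. AXIN2 did not pass without the LS174T Dox (+) pair (adjusted p = 0.0829) or the LS174T Dox (-) pair (0.0715). NOTUM did not pass without the LS174T Dox (-) pair (0.0553) and fell under the filter without the LS174T Dox (+) pair. RNF43 passed in none of the 4 fits that left out a pair, with adjusted p of 0.0577 to 0.132. Of the members that did not pass, TCF7 differed by -1.03 ± 0.38 (adjusted p = 0.0920), ZNRF3 by -0.67 (adjusted p = 0.130), NKD1 by -1.24 (adjusted p = 0.121), LEF1 by -2.30 (adjusted p = 0.117), LGR5 by 0.53 (adjusted p = 0.131), ASCL2 by -0.58 (adjusted p = 0.615) and SP5 by 0.23 (adjusted p = 0.841). Summed mitochondrial transcripts, 45580 to 73710 CPM in xenografts and 71150 to 125700 CPM in cultures, moved with the environment too, and their part in these differences was not tested. Xenografts are bulk tissue, so fewer cells of a type and less RNA per cell cannot be told apart.

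The environment was then fitted within each line. In KM12, AXIN2 (0.59 ± 0.17, adjusted p = 0.0320) and SP5 rose and NKD1 and RNF43 fell in xenografts, 4 of 10 members where 29.8% of genes passed, 14.3% as higher and 15.5% as lower. In LS174T, AXIN2 (1.06 ± 0.16, adjusted p = 0.00129) rose and NKD1, NOTUM, TCF7 and LEF1 fell, 5 of 10 members where 45.9% of genes passed, 23.4% as higher and 22.5% as lower. The difference between the lines, KM12 minus LS174T, was tested directly and passed for SP5 and LEF1, higher in KM12, and for NKD1 and RNF43, lower in KM12. Of all genes, 13.7% passed that test, 5.94% as higher and 7.74% as lower. AXIN2 differed between lines by -0.47 ± 0.23 in its response (adjusted p = 0.205), which did not pass.

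SP5, whose product is known as a repressor acting on other Wnt targets, moved in opposite directions in the lines. Its RefSeq promoter window on GRCh38.p14, chr2:170715087-170715336 on the plus strand, is shown because it held the most matches to the TCF core among the member windows searched. Capitals mark the matches, which begin 148, 109 and 84 bases before the start site.

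SP5: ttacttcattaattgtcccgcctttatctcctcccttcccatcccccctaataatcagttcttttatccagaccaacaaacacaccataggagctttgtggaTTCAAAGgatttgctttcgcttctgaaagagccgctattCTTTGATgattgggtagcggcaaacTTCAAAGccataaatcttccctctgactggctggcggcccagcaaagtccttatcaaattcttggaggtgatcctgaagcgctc

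The word CTTTGAA was searched on both strands, as was the word CTTTGAT, and likewise the word CTTTGTA and the word CTTTGTT. Windows of 250 bases before a start site were found in RefSeq for 4 of the 10 members, 6 windows in all. SP5 had 3 matches, 1 of the TCF7 windows had 1 match, and the LEF1 window, the other TCF7 window and both RNF43 windows had none of these words. At least 1 match was present in 11.96% of the 35116 promoter windows, and at least 3 in 0.122%. A match describes letters only and says nothing of binding in these cells.

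SP5 had 10.6 and 7.17 CPM in the KM12 GNAS KO and parental xenografts, against 1.79 and 3.92 CPM in the GNAS KO and parental cultures. In LS174T it had 1.16 and 1.63 CPM in the Dox (+) and Dox (-) xenografts, against 3.81 and 2.82 CPM in the Dox (+) and Dox (-) cultures. KM12 xenografts were thus the highest of the 8 libraries and LS174T xenografts the lowest. The xenograft ratio was 5.95 (4.46 to 8.04) in KM12 GNAS KO and 1.83 (1.41 to 2.38) in KM12 parental, and 0.305 (0.188 to 0.477) in LS174T Dox (+) and 0.576 (0.387 to 0.844) in LS174T Dox (-). The fitted change was 1.71 ± 0.49 in KM12 (adjusted p = 0.0329) and -1.24 ± 0.50 in LS174T (adjusted p = 0.0756), and their difference was 2.95 ± 0.70 (adjusted p = 0.0306). That difference stayed past the threshold without any 1 of the KM12 libraries but not without any 1 of the LS174T libraries, where adjusted p was 0.182 to 0.221. The KM12 change alone was 0.86 without the GNAS KO culture and 2.57 without the parental culture.

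LEF1 was lower in xenografts of both lines, but by unlike amounts. The xenograft ratio was 0.544 (0.479 to 0.615) in KM12 GNAS KO and 0.538 (0.469 to 0.616) in KM12 parental, pairs that match closely, with a fitted change of -0.89 ± 0.36 (adjusted p = 0.101). In LS174T Dox (+) the ratio was 0.0659 (0.0210 to 0.159), and the Dox (-) xenograft was 26.7-fold lower than its culture when 3 counts stood for its 0. The LS174T change passed at adjusted p = 0.00108, with a fitted value of -4.92 ± 0.62, which was -3.87 without the Dox (-) xenograft and -9.46 without the Dox (+) xenograft. The difference between lines was 4.04 ± 0.75 (adjusted p = 0.0165). This difference ranged from 3.00 without the LS174T Dox (-) xenograft to 8.58 without the LS174T Dox (+) xenograft, because a fit left with the Dox (-) library alone rests on 0 counts, and it did not pass without the Dox (-) xenograft (adjusted p = 0.0855) or the Dox (-) culture (0.0923).

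NKD1 and RNF43 were the members that passed with a more negative response in KM12. NKD1 had 0 and 1 counts in the KM12 GNAS KO and parental xenografts, against 24 and 15 counts in the GNAS KO and parental cultures. For GNAS KO that is 4.83-fold lower when 3 counts stood for the 0, without counting error on the 24. For parental the ratio was 0.111 (0.00264 to 0.722). In LS174T the ratio was 0.714 (0.669 to 0.763) for Dox (+) and 0.494 (0.461 to 0.528) for Dox (-). The fitted change was -4.32 ± 0.79 in KM12 (adjusted p = 0.00683), or -7.28 without the parental xenograft and -3.06 without the GNAS KO xenograft, and -0.75 ± 0.21 in LS174T (adjusted p = 0.0204), and the difference was -3.56 ± 0.88 (adjusted p = 0.0353). The difference passed only in the fits without the KM12 parental culture (-6.44) or the KM12 parental xenograft (-6.53); it was -2.31 without the GNAS KO culture, and adjusted p was 0.130 to 0.147 in the other 6 fits that left out a library. For RNF43, the change was -1.15 ± 0.16 in KM12 (adjusted p = 0.00245) and -0.35 ± 0.15 in LS174T (adjusted p = 0.0982), and the difference was -0.80 ± 0.22 (adjusted p = 0.0456). It likewise passed only without the KM12 parental culture or xenograft, at adjusted p = 0.0351 and 0.0337, against 0.0592 to 0.302 without any other library.

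TCF7 had ratios of 0.540 (0.485 to 0.601) in KM12 GNAS KO and 1.24 (1.15 to 1.33) in KM12 parental, on opposite sides of 1, while LS174T Dox (+) and Dox (-) gave 0.297 (0.269 to 0.327) and 0.302 (0.275 to 0.333). Its fall of 1.74 ± 0.28 in LS174T passed (adjusted p = 0.00389), and the difference between lines, 1.46 ± 0.39, did not (adjusted p = 0.0588). The LS174T call was lost without any 1 of the LS174T libraries, at adjusted p = 0.0777 to 0.101. NOTUM fell by 3.14 ± 0.47 in LS174T (adjusted p = 0.00143), which was not kept without the Dox (-) culture (0.0665) or xenograft (0.0598), and the difference between lines was 1.06 (adjusted p = 0.526). ASCL2 had ratios of 0.0827 (0.0594 to 0.112) in KM12 GNAS KO and 0.455 (0.404 to 0.513) in KM12 parental, against 2.00 (1.93 to 2.08) in LS174T Dox (+) and 1.64 (1.57 to 1.70) in LS174T Dox (-). The lines went opposite ways in every pair, but the KM12 pairs disagreed in size, and the difference of -3.05 ± 0.93 did not pass (adjusted p = 0.140).

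Some by-line calls of AXIN2 and NKD1 also rested on particular libraries. In KM12 the rise of AXIN2 passed only in the fits without the GNAS KO culture or the GNAS KO xenograft (0.75 and 0.77), and it was 0.42 without the parental culture and 0.44 without the parental xenograft. In LS174T it missed the threshold narrowly without the Dox (+) culture (adjusted p = 0.0529) or the Dox (-) culture (0.0513). The LS174T change of NKD1 did not pass without any 1 of the LS174T libraries, at adjusted p of 0.0943 to 0.367. SP5 in KM12 passed only without the parental culture or the parental xenograft, at adjusted p of 0.000501 and 0.000547.

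**Figure D3:**
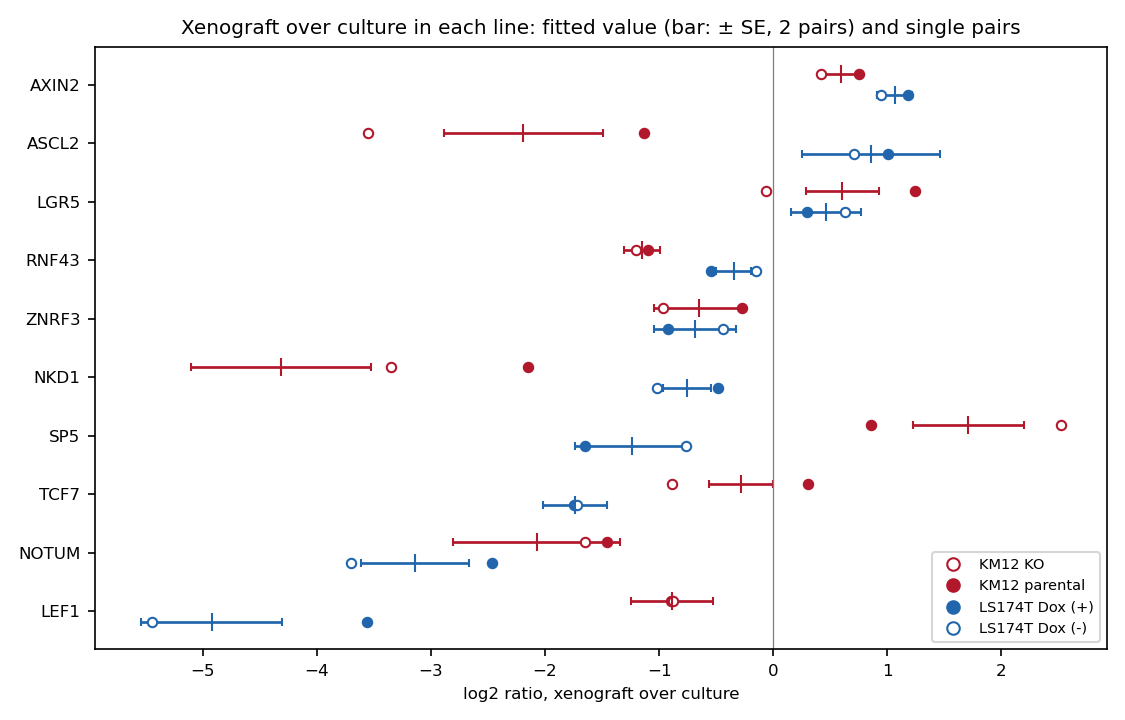
Log2 ratio of xenograft over culture (x axis) for each member in KM12 (red, upper) and LS174T (blue, lower); ticks with bars are fitted values ± SE over 2 pairs a line, filled circles are KM12 parental and LS174T Dox (+), open circles KM12 GNAS KO and LS174T Dox (-), drawn with a prior count of 2. The lines fall on opposite sides of 0 for SP5 and ASCL2 and far apart for LEF1 and NKD1, while AXIN2 lies to the right in both.

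GNAS state was compared by line and over 4 pairs, with Dox (+) grouped with parental as the active state. That grouping is an assumption, since the labels do not say what doxycycline induces. An effect of doxycycline itself cannot be told apart in LS174T. No member passed in any of these comparisons, and few genes did. For KM12 GNAS KO minus parental 0.0124% of genes passed, which is 2 of 16070, and for LS174T Dox (+) minus Dox (-) and for the 4 pairs together 0% passed by edgeR. At an unadjusted p under 0.05 there were 892 genes (5.55%) for KM12 GNAS KO minus parental, with 2 of 10 members, LGR5 and TCF7. There were 717 genes (4.46%) for Dox (+) minus Dox (-) and 977 genes (6.08%) for the 4 pairs, with 0 members in each. DESeq2 called 7 genes for Dox (+) minus Dox (-) and 53 for the 4 pairs, and limma-voom called 0 in each. AXIN2, the member most often read as a report of beta-catenin activity, differed by -0.01 over the 4 pairs (adjusted p = 0.988). Its ratio was 0.825 (0.673 to 1.01) and 1.04 (0.857 to 1.26) for KM12 GNAS KO over parental in xenograft and culture, and 1.01 (0.971 to 1.04) and 0.856 (0.821 to 0.893) for LS174T Dox (+) over Dox (-) in xenograft and culture. LEF1 in KM12 was as close, with ratios of 1.02 (0.867 to 1.20) and 1.01 (0.920 to 1.10) in xenograft and culture.

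The stem cell genes LGR5 and ASCL2, and TCF7, had the largest fitted differences of the members between GNAS KO and parental in KM12. LGR5 had 17.8 CPM in the GNAS KO xenograft against 72.2 CPM in the parental xenograft, and 18.6 CPM in the GNAS KO culture against 30.4 CPM in the parental culture. The ratio was 0.247 (0.219 to 0.277) in the xenograft pair and 0.611 (0.551 to 0.678) in the culture pair. TCF7 gave 0.308 (0.276 to 0.343) in the xenograft pair and 0.707 (0.658 to 0.759) in the culture pair. ASCL2 gave 0.104 (0.0737 to 0.143) and 0.571 (0.524 to 0.623) in the same pairs, so that each of these genes was lower in GNAS KO in both environments and by more in xenografts. LGR5 and TCF7 were the 2 of 10 members whose GNAS KO and parental libraries did not overlap, where 16% of all genes did not overlap. The fitted differences were -1.36 ± 0.32 for LGR5, -1.09 ± 0.28 for TCF7 and -1.83 ± 0.69 for ASCL2, with adjusted p of 0.790, 0.808 and 0.860. LGR5 ranked 122 and TCF7 149 by p among 16070 genes. DESeq2 called LGR5 (adjusted p = 0.00869), and the adjusted p of LGR5 over all alternatives ran from 1.19e-09 to 0.940. All 3 genes passed when the GNAS KO culture or the parental culture was left out, a fit that takes the value from the xenograft pair and its spread from LS174T, and none passed without either KM12 xenograft library. There the LGR5 difference was -0.71, the TCF7 difference -0.50, and the ASCL2 difference -0.81 or -0.80.

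The KM12 parental xenograft, where LGR5 and TCF7 were higher than in the other KM12 libraries, also stood apart in another way. ASCL2 was not high there, at 20.1 CPM against 25.3 and 44.2 CPM in the KM12 GNAS KO and parental cultures. Its summed fibroblast markers reached 267 CPM against 5.43 to 15.3 CPM in the other 7 libraries, with COL3A1 at 220 CPM, COL1A1 at 29.2 CPM and LUM at 10.0 CPM. In the other 7 libraries these had at most 1.13, 7.62 and 0.645 CPM. Of the 7 other genes of the list, COL1A2 had 3.73 CPM there, ACTA2 3.44, PDGFRB 0.459 and DCN 0.229 CPM, and PDGFRA, FAP and POSTN were at 0. COL1A2 was nearly as high in the KM12 GNAS KO xenograft, at 3.45 CPM. ACTA2 reached 6.53 CPM in the LS174T Dox (+) culture, PDGFRB 1.91 CPM in the Dox (-) xenograft and DCN 0.614 CPM in the Dox (-) culture. The fibroblast sum was thus mostly COL3A1, and most genes of the list did not rise with it. Its epithelial sum was 6998 CPM against 8998 CPM in the GNAS KO xenograft. The LS174T Dox (+) and Dox (-) xenografts had sums of 5462 and 7252 CPM. CDX1 had 10.9 CPM in the parental xenograft and 74.2 CPM in the GNAS KO xenograft. EPCAM and KRT18 went the other way, at 572 and 1887.5 CPM in parental against 518 and 1470 CPM in GNAS KO. The other epithelial genes were lower in the parental xenograft. SMOC2, a crypt gene of the wider Wnt target list, was at 6.16 CPM in the GNAS KO xenograft and 82.2 CPM in the parental xenograft. Genes of that list went both ways in this pair. CD44 was also lower in the GNAS KO xenograft, at 279 CPM against 686 CPM. ETS2 (1142 CPM against 438 CPM) and SOX4 (192 CPM against 115 CPM) were higher in the GNAS KO xenograft. The part of these features in the xenograft values was not tested.

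SP5 went opposite ways in the KM12 pairs, with a GNAS KO over parental ratio of 1.48 (1.19 to 1.86) in xenografts and 0.456 (0.328 to 0.627) in cultures. NKD1 and NOTUM had at most 2 counts in the KM12 xenografts, which allows no ratio there. In LS174T no member had Dox (+) and Dox (-) libraries that did not overlap, where 12.4% of all genes did not. ASCL2 had Dox (+) over Dox (-) ratios of 1.41 (1.36 to 1.46) in xenografts and 1.15 (1.11 to 1.20) in cultures. LGR5 had 1.06 (1.01 to 1.12) and 1.34 (1.27 to 1.40), and TCF7 had 1.10 (0.970 to 1.25) and 1.12 (1.06 to 1.19), in xenografts and cultures. LEF1 had 5 counts with Dox (+) and 0 with Dox (-) in xenografts, 1.99-fold higher when 3 counts stood for the 0. That fold leaves out counting error on the 5 counts and is no bound. The LEF1 ratio was 1.13 (0.858 to 1.49) in cultures. NOTUM had a ratio of 3.14 (1.52 to 6.97) in xenografts from 29 counts with Dox (+) and 11 with Dox (-), and 1.20 (0.998 to 1.45) in cultures. RNF43 had 0.739 (0.713 to 0.766) in xenografts and 0.975 (0.949 to 1.00) in cultures. The counting intervals cover counting error only, and none of the fitted values passed, with adjusted p of 0.936 or more.

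The change with assumed GNAS state was also compared between the lines, as KM12 parental minus GNAS KO less LS174T Dox (+) minus Dox (-). It differed by 1.10 ± 0.44 for LGR5 and 0.94 ± 0.39 for TCF7, each with adjusted p = 0.965. Only 0.00622% of genes, 1 of 16070, passed that test.

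**Figure D4:**
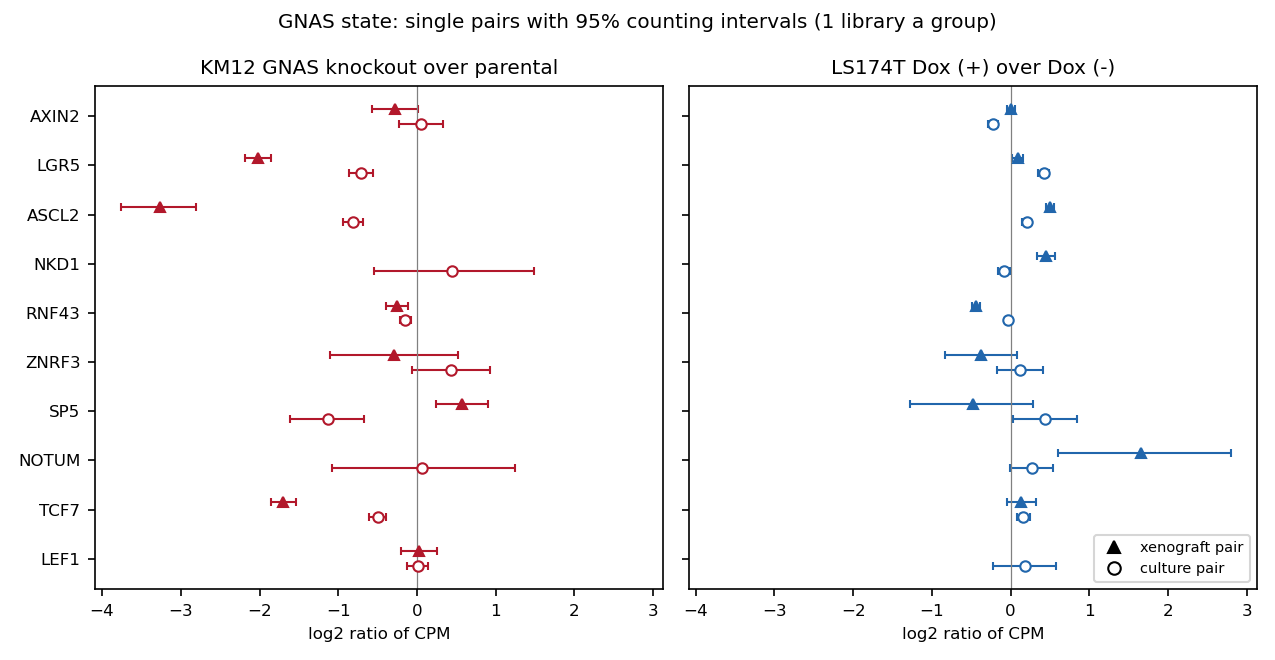
Log2 ratio of CPM (x axis) for single pairs with 95% counting intervals, KM12 GNAS KO over parental on the left and LS174T Dox (+) over Dox (-) on the right; filled triangles are xenograft pairs and open circles culture pairs, and pairs with 3 or fewer counts on a side that allow no ratio are left out. LGR5, ASCL2 and TCF7 lie left of 0 in both KM12 pairs, while AXIN2 and LEF1 lie near 0.

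The other genes of the pathway were taken by list and read with the same tests. Of 23 other colorectal Wnt targets tested, 7 rose and 5 fell in xenografts over the 4 pairs, where 12.6% of all genes rose and 13.5% fell, with a median of -0.28 against 0.02 for all genes. EPHB3, an ephrin receptor that positions crypt cells, rose by 1.65 ± 0.25 (adjusted p = 0.0130), and SOX4, a transcription factor, by 1.28 ± 0.21 (adjusted p = 0.0152). BMP4, a growth factor of the BMP pathway, fell by 2.77 ± 0.25 (adjusted p = 0.00887). Between the lines, 11 of the 23 were lower and 2 higher in KM12, where 16.7% of all genes were lower and 14.8% higher, the lower ones including EPHB3 (-4.66 ± 0.24, adjusted p = 0.000453) and the transporter gene SLC12A2 (-1.51 ± 0.21, adjusted p = 0.00575). APCDD1, a membrane inhibitor of Wnt signalling, had 1 count in the 4 KM12 libraries and 11.8 to 70.1 CPM in the 4 LS174T libraries. It passed the filter on low counts only through LS174T, so it had to be lower in KM12 and its place among the 11 is a description. In KM12, EPHB2 (-3.12 ± 0.18), CEMIP (-2.60 ± 0.19) and MYC (-2.15 ± 0.21) fell in xenografts, with adjusted p of 9.14e-05, 0.000268 and 0.000912, and for EPHB2 and CEMIP the difference from LS174T passed (-2.92 ± 0.23 and -1.79 ± 0.25, adjusted p = 0.000785 and 0.00430). No gene of this list passed for GNAS state in any of the comparisons, with 6 of 23 for KM12 GNAS KO, 2 of 23 for LS174T Dox and 5 of 23 for the 4 pairs at an unadjusted p under 0.05, where 5.55%, 4.46% and 6.08% of all genes were.

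Of the destruction complex and Dishevelled genes, 6 of 13 fell and 0 rose in xenografts over the 4 pairs, where 13.5% of all genes fell and 12.6% rose, with a median of -0.48 against 0.02 over all genes. Within KM12 7 fell and 0 rose, where 15.5% of all genes fell and 14.3% rose. Within LS174T 7 fell and 2 rose, where 22.5% of all genes fell and 23.4% rose. GSK3A and GSK3B, the kinases that mark beta-catenin for destruction, fell by 0.97 ± 0.11 and 0.72 ± 0.12 (adjusted p = 0.00980 and 0.0155). APC, the tumor suppressor scaffold, fell by 0.87 ± 0.16 (adjusted p = 0.0184). The coreceptors LRP5 and LRP6 fell by 1.26 ± 0.15 and 0.82 ± 0.15 (adjusted p = 0.00980 and 0.0186). They were 2 of 15 receptors tested, near the 13.5% of all genes that fell. Of 12 nuclear partners, 1 rose and 2 fell, where 12.6% of all genes rose and 13.5% fell, so this list did not stand apart either. CTNNBIP1, which blocks beta-catenin from TCF, rose by 1.26 ± 0.20 (adjusted p = 0.0139), and the coactivators BCL9L and BCL9 fell by 1.19 ± 0.23 and 0.63 ± 0.13 (adjusted p = 0.0205 and 0.0220). Between the lines, the corepressors TLE1 and TLE4 were higher in KM12, by 2.05 ± 0.13 and 2.70 ± 0.41 (adjusted p = 0.000683 and 0.00735). They were 2 of 12 nuclear partners, where 14.8% of all genes were higher. AXIN1, the constitutive counterpart of AXIN2, was lower (-0.86 ± 0.14, adjusted p = 0.00835). In its list 2 of 13 genes were lower, where 16.7% of all genes were. CTNNB1 itself, which encodes beta-catenin, differed by -0.64 ± 0.21 between the lines and did not pass (adjusted p = 0.0643).

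Some receptor genes differed between the lines in their xenograft change. LGR6, a relative of LGR5 that also binds R-spondins, had 0.728 and 0.516 CPM in the KM12 GNAS KO and parental xenografts against 3.37 and 2.10 CPM in the cultures. In LS174T it had 7.61 and 5.13 CPM in the Dox (+) and Dox (-) xenografts against 0.298 and 0.0921 CPM in the cultures, and the difference between lines was -7.19 ± 0.66 (adjusted p = 0.00106). LGR6 reached 1 CPM only in the KM12 cultures and LS174T xenografts, the libraries that make this difference negative, so that difference is a description. The Frizzled receptor gene FZD2 rose by 3.15 ± 0.46 in LS174T (adjusted p = 0.00147), and the lines differed by -3.46 ± 0.63 (adjusted p = 0.0124). Among inhibitors, the secreted antagonist DKK4 had 0.679 and 0.203 CPM in the LS174T Dox (+) and Dox (-) xenografts against 14.7 and 14.6 CPM in the cultures, a change of -5.15 ± 0.51 (adjusted p = 0.000305). DKK4 passed the filter on low counts only through those cultures, where it is high, so it had to differ and the values are a description. DKK1, another antagonist that blocks LRP5 and LRP6, had 0.0970 and 0 CPM in those xenografts against 7.06 and 7.03 CPM in the cultures, where the fitted value is no bound. It too passed the filter only through those cultures, so its values are likewise a description. DKK4 and DKK1 are both known Wnt targets.

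**Figure D5:**
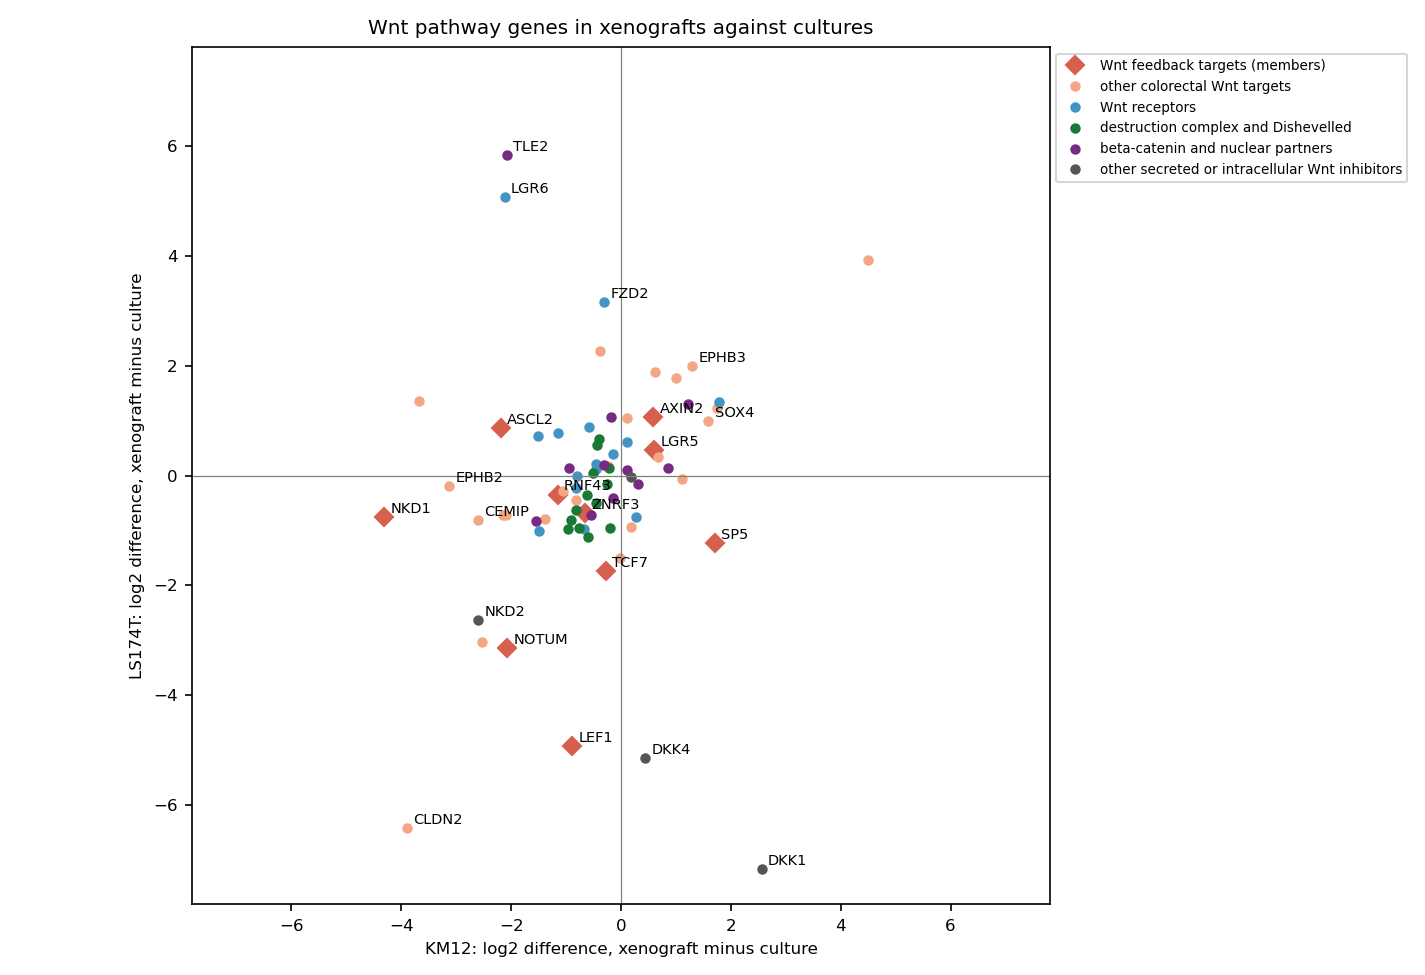
Log2 difference of xenograft minus culture in KM12 (x axis) and LS174T (y axis) for the tested genes of the Wnt target, receptor, destruction complex, nuclear partner and inhibitor lists, with the 10 members as red diamonds; ligand genes are not drawn. Most destruction complex genes lie below and left of the origin, NOTUM, NKD2 and CLDN2 lie in the lower left, and LGR6, DKK4 and DKK1 lie far from 0 in LS174T, by 5.07, -5.15 and -7.17. DKK4 and DKK1 passed the filter on low counts only through the LS174T cultures, so they had to differ.

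The genes most like AXIN2 across the 8 libraries were sought among 11434 genes averaging 5 CPM or more, by the root mean square difference of centred log2 CPM. They were FAM131A (0.271), the zinc finger gene SP8 (0.300), ZNF419 (0.361), the carboxylesterase gene CES3 (0.393) and ARHGEF40 (0.422). SP8, a relative of SP5, had 1.85 and 1.61 CPM in the KM12 GNAS KO and parental xenografts and 1.23 and 1.51 CPM in the cultures, against 37.6 and 62.9 CPM in the LS174T Dox (+) and Dox (-) xenografts and 24.9 and 20.5 CPM in the Dox (+) and Dox (-) cultures. The likeness reflects mainly the gap between the lines, which all 8 points share. Among members, LGR5 was the nearest to AXIN2, at 1.33, farther than each of those genes.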

How the data were processed

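RNA was sequenced from KM12 and LS174T cells in culture and as xenografts, 8 libraries in 8 groups of 1, taken from the labels. Values were raw read counts per gene as deposited by the authors, who per the submitters' processing notes aligned with STAR 2.7.2b, counted with HTSeq 0.11.0 and named hg38 and GRCm39; the treatment of mouse reads and the strand setting are not given in the sources used here. Gene names, positions and exonic lengths came from GENCODE 29 on GRCh38. The 16070 genes that reached 1 CPM in 2 or more libraries were analysed with edgeR 4.0.16 (R 4.3.3), TMM scaling, robust quasi-likelihood and Benjamini-Hochberg adjustment at 0.05. The 4-pair fits have 3 residual degrees of freedom and the fit by line 2. Since no group has a second library, p-values measure disagreement between pairs of lines, states or environments. Each SE is the absolute log2 difference over the square root of F. Single pairs carry exact 95% counting intervals, with a floor of 3 counts against 0. A fold in which 3 counts stood for 0 carries no counting error and is no strict bound. The tests were checked on simulated data. Alternatives were RLE scaling, DESeq2 1.42.0, limma-voom (limma 3.58.1), no filter, no block and each pair or library left out. Named genes were the members, GNAS, the 5 most like AXIN2, and up to 3 genes past the test per pathway list; others were chosen after their values were seen. The members and lists were chosen with earlier results of these data known.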

Additional observations from a re-analysis of the deposited data

Results flagged for a closer look

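For 4 members the change from culture to xenograft differed between the lines by a direct test, KM12 minus LS174T on the log2 scale with edgeR's quasi-likelihood test. SP5 differed by 2.95 ± 0.70 (SE, adjusted p = 0.0306), higher in xenografts in 2 of 2 KM12 pairs and lower in 2 of 2 LS174T pairs. LEF1 differed by 4.04 ± 0.75 (adjusted p = 0.0165), lower in xenografts in all 4 pairs and by more in LS174T, where the xenografts held 5 and 0 counts. NKD1 differed by -3.56 ± 0.88 (adjusted p = 0.0353), lower in xenografts in all 4 pairs and by more in KM12, where the xenografts held 0 and 1 counts. RNF43 differed by -0.80 ± 0.22 (adjusted p = 0.0456), lower in xenografts in all 4 pairs and by more in KM12.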

How the results depend on the processing

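The member values checked covered all members, except that each comparison of GNAS state kept only the 3 members with the smallest p. Of these values, 62 of 62 kept their direction and side of the threshold with RLE scaling, 54 of 62 with DESeq2, 57 of 62 with limma-voom, 49 of 62 with no filter on low counts and 23 of 23 with no replicate block. No paired analysis by replicate was possible because the labels give no replicate numbers; with no replicate block, line, environment and GNAS state entered as additive terms, and 3 members were called for the environment, 8 for the line and 0 for GNAS state, as with pairs. Members called rose to 5 for the environment and 1 for KM12 GNAS KO with DESeq2, and without the filter to 1 for the 4 GNAS pairs, 2 for KM12 GNAS KO and 1 for the difference between lines in GNAS state; the cause was not tested. Leaving out 1 pair or library gave 0 to 3 members for the environment, 6 to 8 for the line, 0 for the 4 GNAS pairs, 0 to 3 for KM12 GNAS KO, 0 for LS174T Dox, 2 to 5 for the KM12 environment, 1 to 8 for the LS174T environment, 0 to 6 for the difference in environment and 0 to 3 for that in GNAS state. A fit without a library takes its spread mostly from the other line, and a lone library is assumed to vary like the rest. Among the values checked, those that changed sign on leaving out a pair or library were SP5 (-0.52 to 0.90) and ASCL2 (-1.22 to 0.23) for the environment, TCF7 (-0.42 to 0.34) for the line, LGR5 (-0.065 to 1.25) and TCF7 (-0.89 to 0.32) for the KM12 environment, and LGR5 (-0.53 to 0.78) and ZNRF3 (-0.32 to 0.40) for the difference in environment. None of these had passed. For the other members, sign changes in the GNAS state comparisons were not checked. Depth limits NKD1 and NOTUM in KM12 and LEF1 in LS174T xenografts.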

Other observations

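Genes for Wnt ligands were mostly low: 10 of 25 ligand, secretion and R-spondin genes passed the filter on low counts. WNT4 had 0.485 and 0.163 CPM in the LS174T Dox (+) and Dox (-) xenografts against 15.2 and 9.36 CPM in the cultures, and it fell by 5.30 ± 0.45 (edgeR adjusted p = 0.000172), while KM12 had at most 1.12 CPM. The difference between lines was 6.72 ± 0.66 (adjusted p = 0.00117). WNT7B, the only ligand gene past the test over the 4 pairs, fell by 1.64 ± 0.46 in xenografts (adjusted p = 0.0471). WNT10A was lower in KM12, with 0 to 0.0879 CPM against 1.63 to 4.60 CPM in LS174T (-6.01 ± 0.58, adjusted p = 0.00205). WNT3 was higher in KM12, with 1.51 to 2.41 CPM against 0 to 0.0970 CPM in LS174T (6.36 ± 0.86, adjusted p = 0.00517). WNT10A passed the filter on low counts only through LS174T and WNT3 only through KM12, and WNT4 would not have passed without the LS174T cultures, where each is high, so they had to differ and these values are descriptions. ROR1, a receptor of noncanonical Wnt ligands, had 6.94 to 19.8 CPM in KM12 and 0 counts in all 4 LS174T libraries. It passed the filter only through KM12, so its values are a description too.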
